A study of Mus musculus with 2 samples.

Results

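The miR-148/miR-152 family is a set of 3 mouse microRNA (miRNA) genes, Mir148a, Mir148b and Mir152, each of which yields a guide arm (3p) and a passenger arm (5p). All 6 mature forms were found by name among the 1976 mature miRNAs listed for exosomes of polarised macrophages. They were proposed for study with the difference between these libraries already known, so their levels and ratios are a description and were not tested. The family also matched its label by sequence, since the guide arms share their seed. In what follows, bone marrow-derived macrophages (BMDMs) of C57BL/6 mice aged 5 to 6 weeks had been grown in M-CSF at 10 ng/mL for 7 days. The M1 group was then polarised with IFN-γ and the M2 group with IL-4, each at 20 ng/mL for 1 day. Exosomes, small vesicles that cells release, were pelleted by ultracentrifugation from serum-free medium that had been on the cells for 2 days. M1 was thus induced by IFN-γ alone, no library of unpolarised macrophages was analysed here, and the labels do not say how many mice contributed.

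A miRNA pairs through its seed, the bases near its 5′ end, with sites in messenger RNAs and lowers their translation and stability. The miR-148/miR-152 family is known for repressing the maintenance DNA methyltransferase Dnmt1. In mouse dendritic cells it is known to restrain the response to Toll-like receptor signals through the kinase CaMKIIα, and in liver miR-148a is known to repress the LDL receptor. When a hairpin is processed, the guide arm is usually loaded into Argonaute and the passenger arm is mostly degraded, so the passenger is normally the scarcer of the pair.

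The guide arms are shown first because the family is defined by them. Their sequences, from the RefSeq table for GRCm38.p6 and written 5′ to 3′, have the seed (bases 2 to 8) in capitals.
mmu-miR-148a-3p: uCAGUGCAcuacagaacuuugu
mmu-miR-148b-3p: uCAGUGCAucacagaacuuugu
mmu-miR-152-3p: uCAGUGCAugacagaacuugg
The seed was the same in all 3, and among the 1679 mature names of that table no other miRNA had it at bases 2 to 8. Counting positions from 1 at the 5′ end, miR-148b-3p differed from miR-148a-3p by C9U and U10C, and 20 of 22 bases were the same. miR-152-3p, which is 1 base shorter, differed from miR-148a-3p by C9U, U10G and U20G over the 21 bases they share, and from miR-148b-3p by C10G and U20G. The variable bases thus lay directly after the seed and at the 3′ end.

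The passenger arms are shown because they do not form a single seed group.
mmu-miR-148a-5p: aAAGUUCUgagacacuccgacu
mmu-miR-148b-5p: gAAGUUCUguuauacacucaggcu
mmu-miR-152-5p: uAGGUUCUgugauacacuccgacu
The first pair shared a seed, while the seed of miR-152-5p differed from it by A3G. No other mature name in the table had either passenger seed.

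The hairpins show where the arms lie, with the guide arm in capitals and the passenger arm on the 5′ side of the loop.
Mir148a: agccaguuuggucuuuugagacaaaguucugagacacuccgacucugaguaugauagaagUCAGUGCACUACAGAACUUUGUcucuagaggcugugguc
Mir148b: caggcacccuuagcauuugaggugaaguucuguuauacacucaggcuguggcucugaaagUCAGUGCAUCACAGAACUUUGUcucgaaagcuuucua
Mir152: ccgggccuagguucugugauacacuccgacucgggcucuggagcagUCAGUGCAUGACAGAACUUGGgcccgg
The 3 hairpins lie on different chromosomes (GRCm38, the assembly also called mm10). Mir148a, on the minus strand at chr6:51269812-51269910, overlaps no other gene in GENCODE M21. The nearest annotated gene is the long noncoding RNA gene Gm32479, 13622 bases away, and the nearest protein-coding gene is Nfe2l3, 162760 bases away. Mir148b, on the plus strand at chr15:103285125-103285221, lies in an intron of Copz1 in the sense orientation. Mir152, on the plus strand at chr11:96850393-96850465, lies in an intron of Copz2, also in the sense orientation. Copz1 and Copz2 encode alternative zeta subunits of the COPI coat, which forms vesicles that return cargo from the Golgi to the endoplasmic reticulum. A gene of the NFE2 transcription factor family lies near each hairpin, Nfe2l3 near Mir148a, Nfe2 at 26722 bases from Mir148b and Nfe2l1 at 20425 bases from Mir152. The series measured no messenger RNA, so the level of the host genes in these macrophages was not analysed here.

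The deposited values are log2(level + 1), on a normalized scale whose unit the sources used here do not define. A level below is the value turned back to this linear scale, in units, and a log2 ratio is the M1 value minus the M2 value as deposited. Each group has 1 library, so no value has a replicate error, no ratio was tested and every difference is between 2 libraries rather than 2 conditions. The summed level of all miRNAs was 686353 units in M1 exosomes, against 734637 units in M2 exosomes, while read totals are unknown. At low levels 1 read was worth near 0.806 units in M1 exosomes, against 1.22 units in M2 exosomes, so the same low level rests on more reads in M1 exosomes. Fewer vesicles of a kind and fewer miRNA molecules per vesicle cannot be told apart in such data. The myeloid miRNAs miR-223-3p, miR-142a-3p, miR-142a-5p, miR-146a-5p, miR-155-5p and miR-21a-5p were all present, at 142 to 120526 units in M1 exosomes and 229 to 50604 units in M2 exosomes.

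All 3 guide arms were lower in M1 exosomes than in M2 exosomes. mmu-miR-148a-3p, the most abundant member, had a log2 value of 14.83 in M1 exosomes, against 16.10 in M2 exosomes. That is 29084 units in M1 exosomes against 70239 units in M2 exosomes, a log2 ratio of -1.27 and a 2.41-fold lower level in M1 exosomes. It ranked 7th of all miRNAs in M1 exosomes and 3rd in M2 exosomes, so it was among the most abundant miRNAs of both libraries. Directly above it stood let-7i-5p in M1 exosomes, at 15.17, and miR-99a-5p in M2 exosomes, at 16.28. Directly below it stood let-7j in M1 exosomes, at 14.52, and let-7f-5p in M2 exosomes, at 15.78.

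mmu-miR-148b-3p, which has the same seed but comes from the Copz1 intron, showed nearly the same ratio at a much lower level. It had a log2 value of 9.56 in M1 exosomes, against 10.84 in M2 exosomes, which is 752 units in the M1 library and 1835 units in the M2 library. Its log2 ratio was -1.29, which is 2.44-fold lower in M1 exosomes and 0.01 from the log2 ratio of miR-148a-3p. It ranked 71st in M1 exosomes, between miR-142a-5p and miR-30e-3p, and 35th in M2 exosomes, between miR-1981-5p and miR-191-5p.

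mmu-miR-152-3p, from the Copz2 intron, was the scarcest guide and had the log2 ratio farthest from 0 of the 3. It had a log2 value of 6.52 in M1 exosomes, against 8.26 in M2 exosomes, which is 91.0 units in the M1 library and 306 units in the M2 library. Its log2 ratio was -1.74, which is 3.33-fold lower in M1 exosomes and 0.45 beyond that of miR-148b-3p. It ranked 156th in M1 exosomes and 105th in M2 exosomes. The neighbours in rank were miR-421-3p and miR-411-5p in M1 exosomes and miR-3074-2-3p and miR-192-5p in M2 exosomes, all within 0.03 of it on the log2 scale.

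**Figure D1:**
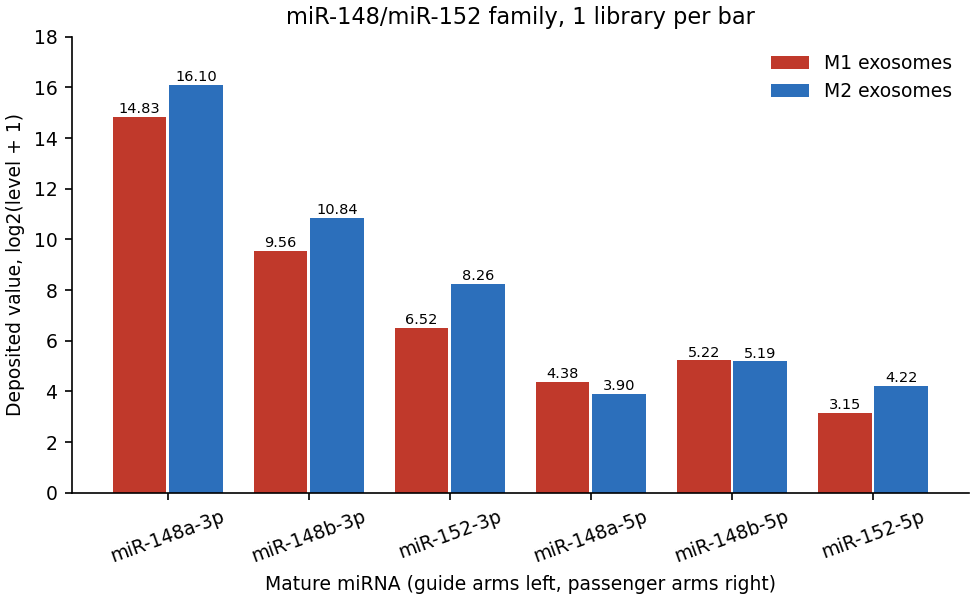
Deposited log2(level + 1) value of each family member, with M1 exosomes on the left and M2 exosomes on the right of each pair and 1 library per bar, so there are no error bars. The guide arms (left) are each lower in M1 exosomes, from 6.52 to 14.83 against 8.26 to 16.10 in M2 exosomes, while the passenger arms (right) lie between 3.15 and 5.22 in M1 exosomes and between 3.90 and 5.19 in M2 exosomes.

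The order of the guides was the same in both libraries, with miR-148a-3p highest and miR-152-3p lowest. The guides are 21 to 22 bases long, so no correction for length was made. The level of miR-148a-3p was 38.7 times that of miR-148b-3p in M1 exosomes, against 38.3 times in M2 exosomes. The corresponding figure for miR-148a-3p over miR-152-3p was 320 in M1 exosomes, against 230 in M2 exosomes. Whether reads of the dominant guide were counted under its near-identical relatives was not tested, and the sources used here do not say how mismatched or multiply matching reads were handled. The values of miR-148b-3p and miR-152-3p are uncertain to that extent.

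Of the passenger arms, those of Mir148a and Mir148b did not differ in the way their guides did. mmu-miR-148a-5p had a log2 value of 4.38 in M1 exosomes, against 3.90 in M2 exosomes, which is 19.8 units in the M1 library and 13.9 units in the M2 library, at a log2 ratio of 0.48. mmu-miR-148b-5p had 5.22 in M1 exosomes, against 5.19 in M2 exosomes, which is 36.4 units in the M1 library and 35.4 units in the M2 library, at a log2 ratio of 0.04. Both of these lay within 2-fold, although their guides did not. mmu-miR-152-5p had 3.15 in M1 exosomes, against 4.22 in M2 exosomes, which is 7.85 units in the M1 library and 17.6 units in the M2 library. Its log2 ratio of -1.08 lay just past 2-fold. It was within 2-fold under other settings, at -0.98 when each library was divided by its summed level and -0.63 with 10 units added to each level. All 6 members were above the worth of 3 reads in both libraries, which is 2.42 units in M1 exosomes, against 3.67 units in M2 exosomes. The passenger arms were nevertheless the weakest values, at the equivalent of 9.74 to 45.2 reads in M1 exosomes and 11.4 to 29.0 reads in M2 exosomes if the worth of 1 read seen at the lowest levels also held there.

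Of the 6 members, all reached 10 units in at least 1 library, the minimum used for comparing a miRNA, and 4 were at least 2-fold lower in M1 exosomes. None was at least 2-fold higher. Among all 337 miRNAs compared, 77 were at least 2-fold lower in M1 exosomes, which is 22.8%, and 88 were at least 2-fold higher, which is 26.1%. The members were proposed from this same contrast, so nothing is read from that difference. The median log2 ratio was -1.17 over the 6 members, -1.29 over the guides and 0.04 over the passengers, beside 0.04 over all 337. The guides all had a mean level of at least 100 units, a class in which 31 of 154 miRNAs, or 20.1%, were at least 2-fold lower in M1 exosomes. The passengers all had a mean level under 100 units, where 46 of 183, or 25.1%, were. Counted from the lowest log2 ratio, miR-152-3p stood 35th of the 337, miR-148b-3p 54th, miR-148a-3p 55th and miR-152-5p 67th, so none was at the extreme of the libraries.

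**Figure D2:**
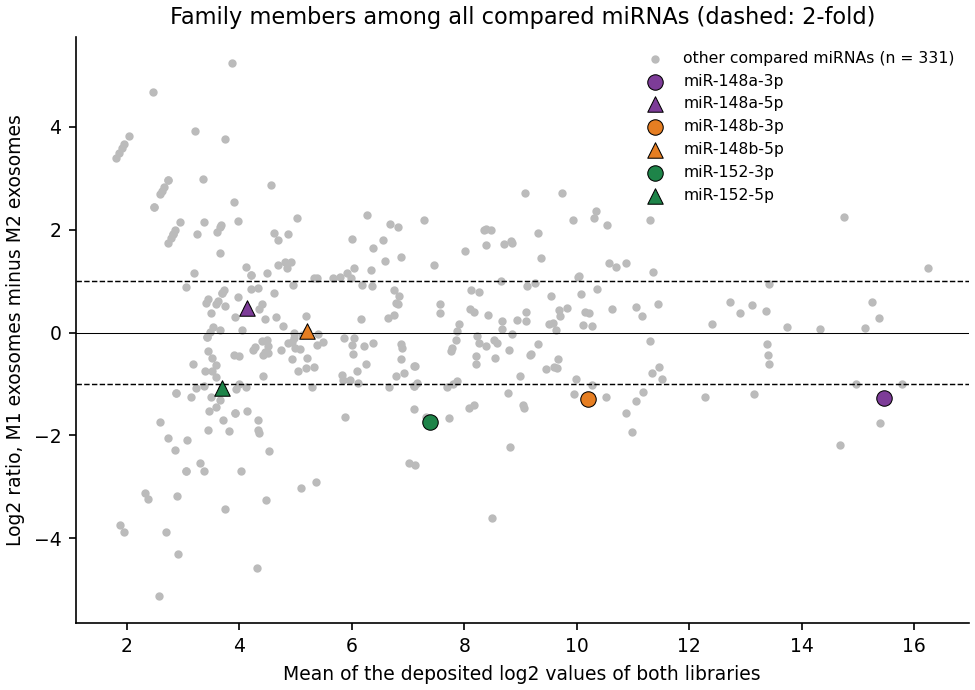
Log2 ratio (M1 exosomes minus M2 exosomes) against the mean of the deposited log2 values for the 337 miRNAs compared, with guide arms as coloured circles, passenger arms as coloured triangles and the other 331 miRNAs in grey. The guides lie below the lower dashed line (2-fold lower in M1 exosomes) at -1.27, -1.29 and -1.74, the triangles at 0.48 and 0.04 lie between the dashed lines, and that of miR-152-5p lies at -1.08.

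Because miR-148a-3p outweighed the rest, the family behaved in sum as that miRNA did. The 6 members summed to 29991 units in M1 exosomes, against 72446 units in M2 exosomes, a log2 ratio of -1.27. That was 4.37% of the summed level of all miRNAs in M1 exosomes, against 9.86% in M2 exosomes. The depth behind these shares is unknown, so they have no counting interval. miR-148a-3p made up 97.0% of the family level in both M1 exosomes and M2 exosomes, miR-148b-3p 2.51% in M1 exosomes, against 2.53% in M2 exosomes, and miR-152-3p 0.303% in M1 exosomes, against 0.422% in M2 exosomes. The other 5 members together summed to 907 units in M1 exosomes, against 2207 units in M2 exosomes, a log2 ratio of -1.28. The 3 passengers together had 64.0 units in M1 exosomes, against 67.0 units in M2 exosomes, a log2 ratio of -0.06.

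Since the guides were lower in M1 exosomes and the passengers of Mir148a and Mir148b were not, the balance of the arms differed between the libraries. For Mir148a the guide level was 1469 times the passenger level in M1 exosomes, against 5035 times in M2 exosomes. For Mir148b it was 20.7 times in M1 exosomes, against 51.8 times in M2 exosomes. For Mir152 it was 11.6 times in M1 exosomes, against 17.3 times in M2 exosomes. The passenger thus held 0.0680% of the Mir148a level in M1 exosomes, against 0.0199% in M2 exosomes. It held 4.62% of the Mir148b level in M1 exosomes, against 1.89% in M2 exosomes, and 7.94% of the Mir152 level in M1 exosomes, against 5.46% in M2 exosomes. The 3 genes kept the same order in both libraries, Mir148a being the most one-sided and Mir152 the least.

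Against other hairpins with both arms well measured, Mir148a was among the most one-sided. Arms were paired by name up to the 3p or 5p ending, which left out hairpins with a locus number in the name of 1 arm. An example is let-7f-5p with let-7f-1-3p, at 56227 and 35.4 units in M2 exosomes. The guide was taken as the arm with the higher mean level. Of the paired hairpins, 57 had both arms at 10 units or more in M1 exosomes, against 52 in M2 exosomes. The median log2 of guide level over passenger level was 3.80 in M1 exosomes, against 3.37 in M2 exosomes. Mir148a ranked 3rd in M1 exosomes, after miR-146a and miR-27b, and first in M2 exosomes, ahead of miR-21a and miR-27b. Mir148b ranked 21st in M1 exosomes and 11th in M2 exosomes. Mir152 ranked 20th in M2 exosomes and was not ranked in M1 exosomes, where its passenger was below 10 units. The ranks also leave out hairpins with scarcer passengers, some of them more one-sided by their listed values. Among those with a passenger above 0 but below 10 units, 8 in M1 exosomes and 11 in M2 exosomes had a larger listed guide excess than Mir148a. let-7i was among them in both libraries. For most of the 11 in M2 exosomes the passenger was nearest to 0 reads, so their excess was not measured. These passengers ran from 0.0210 units for miR-101a to 0.0815 units for miR-26b, with miR-122 at 0.0519 units. With a guide of at least 10 units, a further 62 hairpins in M1 exosomes and 53 in M2 exosomes had a passenger listed at 0 and gave no ratio.

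The shift of the arms was set against the same measure in the 68 hairpins whose arms were paired by name and both compared. The log2 ratio of the guide minus that of the passenger was -1.75 for Mir148a, -1.33 for Mir148b and -0.66 for Mir152. Its median over the 68 was -0.23, with a range of -4.57 to 4.71, and 15 of them were at -1 or below. Among these 68, Mir148a was the 9th lowest, Mir148b the 12th lowest and Mir152 the 22nd lowest, so shifts of this size also occurred elsewhere. These ranks do not count hairpins left out of the pairing, such as let-7f-5p, with a log2 ratio of -2.18, and let-7f-1-3p, with 0.04. Low values of each library moved with those of the other, as under a joint normalization that varies with level, and guide and passenger differ in level by up to 12.3 on the log2 scale. The part of that normalization in the shift was not tested.

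**Figure D3:**
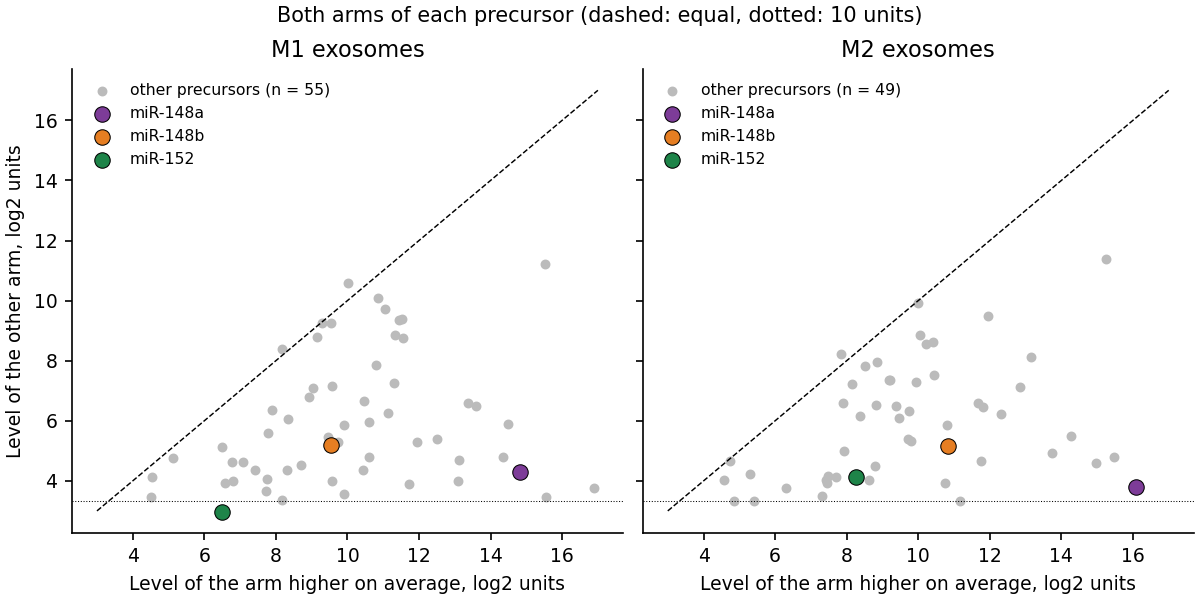
Level of the 2 arms of each hairpin on a log2 axis in units, in M1 exosomes (left) and M2 exosomes (right), 1 library each, with the arm that was higher on average along the horizontal axis. Grey points are other hairpins with arms paired by name and both at 10 units (dotted line) or more. Points on the dashed line would have equal arms. Mir148a lies far to the right at the foot of the plot, with its guide at 29084 units and its passenger at 19.8 units in M1 exosomes, against 70239 units and 13.9 units in M2 exosomes.

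The miRNAs with values most like each guide were found by the distance in the plane of mean log2 value and log2 ratio, over the 2 libraries. Nearest to miR-148a-3p were miR-99a-5p, at 15.28 in M1 exosomes, against 16.28 in M2 exosomes, let-7j, at 14.52 in M1 exosomes, against 16.28 in M2 exosomes, and miR-21a-5p, at 14.48 in M1 exosomes, against 15.47 in M2 exosomes. Nearest to miR-148b-3p were miR-374b-5p, with a log2 ratio of -1.20, miR-378c, with -1.01, and miR-26a-5p, with -1.24. Nearest to miR-152-3p were miR-27a-5p, with a log2 ratio of -1.64, miR-378b, with -1.65, and miR-15b-3p, with -1.48. With 2 libraries this likeness rests on 2 values per miRNA.

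Other families with several loci were set beside it. The guide arms of miR-26, a family that curbs proliferation, came closest, since both were at least 2-fold lower in M1 exosomes. miR-26a-5p had a log2 value of 9.90 in M1 exosomes, against 11.14 in M2 exosomes, and miR-26b-5p 8.19 in M1 exosomes, against 9.36 in M2 exosomes. In the let-7 family, known for promoting differentiation, 4 of 10 compared members were at least 2-fold lower in M1 exosomes and 0 were at least 2-fold higher, with log2 ratios between -2.18 for let-7f-5p and 0.55 for let-7b-5p. Several let-7 members are also near-identical, and their values are uncertain for the same reason. In the miR-30 family the members were split, with 0 of 5 at least 2-fold lower in M1 exosomes and 2 at least 2-fold higher. The difference between the families could not be tested with 1 library per group.

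**Figure D4:**
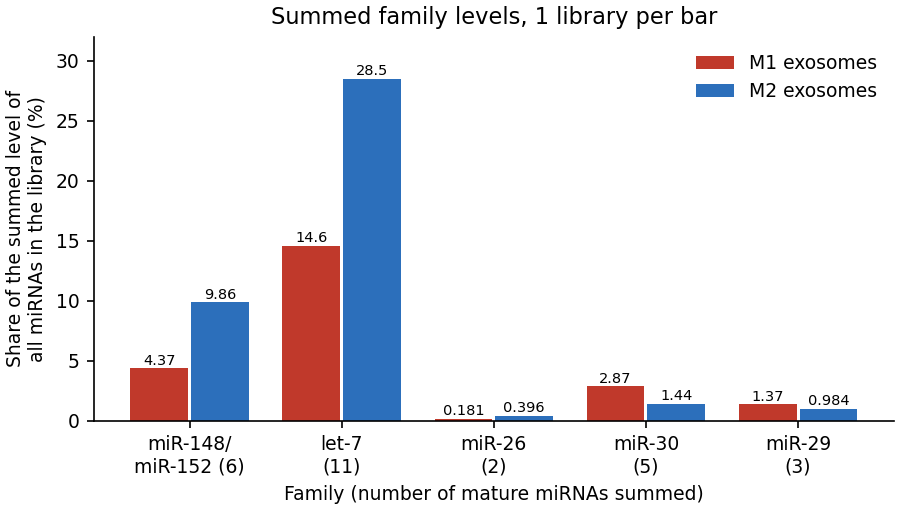
Summed level of each family as a percentage of the summed level of all miRNAs in the library, with M1 exosomes on the left of each pair, 1 library per bar and no error bars. The miR-148/miR-152 family holds 4.37% in M1 exosomes, against 9.86% in M2 exosomes, less than let-7 (14.6% in M1 exosomes, against 28.5% in M2 exosomes) and more than miR-26, miR-30 or miR-29 in both libraries. Both arms are summed for the miR-148/miR-152 family, whose guide arms alone hold 4.36% in M1 exosomes, against 9.85% in M2 exosomes. For the other families only the arms listed as guides are summed.

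The miR-29 family, which is known to repress the de novo DNA methyltransferases and so touches the same enzyme class as the miR-148/miR-152 family, had no member below 0. Its log2 ratios were 0.38 for miR-29a-3p, 0.40 for miR-29b-3p and 1.07 for miR-29c-3p, of which the last passed 2-fold. miR-29a-3p, its most abundant member, had 8730 units in M1 exosomes, against 6727 units in M2 exosomes. It was thus below miR-148a-3p in both libraries.

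Markers of other cell types also differed between the libraries, and the erythroid, hepatocyte and stromal lists summed to more in M1 exosomes, the opposite direction to the guides. Of the 4 compared erythroid miRNAs, of 5 listed, all 4 were higher in M1 exosomes by 2-fold or more. The list summed to 7948 units in M1 exosomes, against 1498 units in M2 exosomes. Most of that was miR-486a-5p, at 2958 units in M1 exosomes, against 576 units in M2 exosomes, and miR-486b-5p, at 2756 against 588 units. Whether the same reads were counted under both names was not tested, so they may not be separate members. The hepatocyte list, of interest because miR-148a is also abundant in liver, summed to 60272 units in M1 exosomes, against 13050 units in M2 exosomes. Within it miR-122-5p had a log2 ratio of 2.24, while miR-192-5p and miR-194-5p had 0.35 and 0.34, so 1 of 3 passed 2-fold. The stromal list summed to 4413 units in M1 exosomes, against 1498 units in M2 exosomes, of which miR-10b-5p held 3084 and 722 units. Of its 5 compared members, of 6 listed, 3 were higher in M1 exosomes by 2-fold or more. The other compared members, miR-143-3p and miR-199a-5p, had log2 ratios of -0.33 and 0.315. The epithelial list was low, with sums of 248 units in M1 exosomes, against 178 units in M2 exosomes, and 2 of 5 compared members, of 7 listed, higher in M1 exosomes by 2-fold or more. The other 3 compared members had log2 ratios below 0, at -0.61 for miR-200b-3p, -0.50 for miR-429-3p and -0.46 for miR-203-3p, and the median of the list was -0.46.

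The lymphocyte list summed to 2478 units in M1 exosomes, against 2274 units in M2 exosomes. Its most specific member, miR-150-5p, was at least 2-fold lower in M1 exosomes, as the guides were, at 10.2 units in M1 exosomes, against 35.3 units in M2 exosomes. The other members, miR-181a-5p and miR-181b-5p, had log2 ratios of 0.15 and 0.13. No deposited value of the listed markers was exactly 0, but 3 of them lay at or below the worth of 1 read in at least 1 library. These were miR-205-5p, at 0.800 units in M1 exosomes, against 0.0210 units in M2 exosomes, miR-141-3p, at 0.718 units in M1 exosomes, against 4.96 units in M2 exosomes, and miR-214-3p, at 9.61 units in M1 exosomes, against 0.0800 units in M2 exosomes. The M2 values of miR-205-5p and miR-214-3p are nearest to 0 reads, so neither is counted as detected there. Also below the worth of 3 reads in M2 exosomes were miR-144-3p, miR-144-5p and miR-145a-5p, at 1.33, 2.66 and 1.39 units. The ratios of miR-144-5p and miR-145a-5p, both counted above as at least 2-fold higher in M1 exosomes, rest on these low values. The part of other cell types in the levels of the miR-148/miR-152 family was not tested.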

How the data were processed

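Small RNA of exosomes from M1 and M2 macrophages was sequenced with a NEBNext small RNA kit from 500 ng of RNA, 1 library per group. Bowtie2, bedtools and mm10 are named in the submitters' processing notes, with no version or role. How reads matching several miRNAs were counted, whether strand was used and how levels were normalized is not stated. The authors deposited log2(level + 1) values, 1 per mature miRNA, a scale settled from the values. The linear levels of miRNAs at or near 0 in the other library fell on even steps. In M1 exosomes 97.7% of 175 such levels, and in M2 exosomes 96.9% of 129, were whole multiples of the step within 0.1 step. The step was fitted to these same levels. Low levels of miRNAs present in both libraries could lie off the steps, such as 0.695 units for miR-467a-5p in M1 exosomes. Read totals are unknown, so no counting interval is given.

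The log2 ratio is M1 minus M2. A miRNA was compared at 10 units in at least 1 library, and a log2 ratio of 1 (2-fold) was the fold used. Named miRNAs are the 6 members, the 3 nearest to each guide in mean and ratio, the rank neighbours and the listed families and markers. The members and lists were chosen with earlier results of these data known. The call rule was run on simulated libraries with planted changes and counting noise alone. That does not measure variation between libraries. Sequences are RefSeq's (GRCm38.p6), matched by name for 1677 of 1976 miRNAs and all 6 members, and neighbouring genes come from GENCODE M21. Scaling, pseudocount and minimum were varied. Python 3.11.15, numpy 2.4.6, pandas 2.3.3 and matplotlib 3.10.9 were used.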

Additional observations from a re-analysis of the deposited data

How the results depend on the processing

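The log2 ratios of the 3 guides and of the summed family stayed at least 2-fold lower in M1 exosomes in all 21 recalculations, between -1.80 and -1.17. These used 3 other scalings, another or no pseudocount and, for the sum, the guide arms alone or no miR-148a-3p. The scalings shift all ratios alike and by little, and the pseudocounts are small beside the guide levels. They therefore had little room to move the guides within 2-fold. Taking the guide arms alone also had little room to move the sum. These arms held 29927 of its 29991 units in M1 exosomes, against 72379 of 72446 units in M2 exosomes. A normalization that varies with level was not tried. miR-152-5p moved within 2-fold, to -0.98 with each library divided by its summed level and to -0.63 with levels plus 10 units. miR-148b-5p had no stable sign, at -0.02 when scaled without the 10 most abundant miRNAs and 0 with the median subtracted. Over all miRNAs the numbers at least 2-fold higher and lower in M1 exosomes were 201 and 229 with no minimum, 37 and 33 with a minimum of 100 units, and 55 and 37 with 10 units required in both libraries. The scalings moved all log2 ratios by 0.10, -0.06 and -0.04. No paired analysis was possible because a single library stands for each group, which also leaves none to omit. Passenger levels are limited by depth.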
